A study of Mus musculus with 22 samples.

Results

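In the telencephalon of ICR mouse embryos, 5098 regions carried lactylation of lysine 18 of histone H3 (H3K18la) at embryonic day 13.5 (E13.5), had no H3K18la peak at embryonic day 16.5 (E16.5), and had no peak of acetylated or crotonylated lysine 9 of the same histone (H3K9ac, H3K9cr) at either stage. They were found by merging all peaks of the 12 histone peak lists on chromosomes 1 to 19 and X wherever peaks overlapped by at least 1 bp, which gave 112550 regions. A region was taken when both E13.5 H3K18la libraries had a peak in it, neither E16.5 H3K18la library did, and none of the 8 H3K9ac and H3K9cr libraries did. These are called E13.5-only lactylated regions here. Their presence at E13.5, their absence at E16.5 and their lack of H3K9 marks are therefore the choice itself and not results.

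Cerebral cortex and basal ganglia both develop from the telencephalon. The tissue came from embryos of the outbred ICR strain at E13.5 and E16.5, with no treatment named, with 2 libraries per assay and stage, described as biological replicates. Native ChIP-seq, which precipitates chromatin without crosslinking, mapped H3K9ac, H3K9cr and H3K18la at both stages, RNA-seq covered both stages, and ATAC-seq, which cuts accessible DNA with a transposase, covered E13.5. The number of embryos behind each library is not stated in the labels, and the input libraries were not analysed here. The telencephalic transcription factors Emx1, Emx2, Lhx2, Six3, Tbr1, Dlx2 and Nkx2-1 were all detected at both stages, with Tbr1 at 398 CPM at E13.5 and 224 CPM at E16.5 (CPM, read counts scaled to library size; means over 2 libraries).

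Lactylation is an acyl mark that uses lactate carbon, and like acetylation it is found on nucleosomes of active promoters and enhancers. H3K9ac and H3K9cr are typical of active start sites, so a lactylated region with neither is a site where a lactyl peak stands without the usual promoter marks. Between these ages the telencephalon moves from a population rich in dividing radial glia and early-born neurons to one rich in later-born neurons that extend axons and form synapses, and the first glial genes rise.

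Few of the regions lay at promoter windows, and those that did mostly touched sequence poor in CpG, the dinucleotide that is dense in most housekeeping promoters. The scarcity and the low CpG are in part set by the choice, which left out every region with an H3K9 peak. Of the 13631 windows under regions with both E13.5 H3K18la peaks, 13438 lay under regions that also had an H3K9 peak. Of the promoter windows in RefSeq for the GRCm38.p6 assembly, each from 250 bases before to 50 bases after a start site, 68 overlapped an E13.5-only lactylated region, of which 25 belonged to protein-coding genes. The 250 bases before 4 of these start sites are shown, each read 5′ to 3′ on the strand of its gene, with every CpG in capitals. They were picked after their values were seen: Mobp as the protein-coding window with the strongest peak, Tmod2 as the strongest with a well expressed gene, Frem1 as the start site under one of the longest regions, and Otud3 as a CpG-dense contrast.
Mobp: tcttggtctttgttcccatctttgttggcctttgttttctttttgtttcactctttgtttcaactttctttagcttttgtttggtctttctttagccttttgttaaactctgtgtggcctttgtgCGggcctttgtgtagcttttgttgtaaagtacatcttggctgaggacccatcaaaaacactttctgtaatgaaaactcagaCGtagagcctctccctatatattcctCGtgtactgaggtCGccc
Tmod2: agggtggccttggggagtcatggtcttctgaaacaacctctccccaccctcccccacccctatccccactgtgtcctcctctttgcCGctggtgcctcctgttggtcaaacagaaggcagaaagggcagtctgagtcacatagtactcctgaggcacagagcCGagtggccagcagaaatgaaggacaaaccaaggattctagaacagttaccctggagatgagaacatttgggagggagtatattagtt
Frem1: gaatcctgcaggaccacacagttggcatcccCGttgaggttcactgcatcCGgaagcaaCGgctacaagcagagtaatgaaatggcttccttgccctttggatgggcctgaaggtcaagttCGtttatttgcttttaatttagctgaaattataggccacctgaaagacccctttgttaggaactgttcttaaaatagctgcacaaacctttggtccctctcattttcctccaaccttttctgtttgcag
Otud3: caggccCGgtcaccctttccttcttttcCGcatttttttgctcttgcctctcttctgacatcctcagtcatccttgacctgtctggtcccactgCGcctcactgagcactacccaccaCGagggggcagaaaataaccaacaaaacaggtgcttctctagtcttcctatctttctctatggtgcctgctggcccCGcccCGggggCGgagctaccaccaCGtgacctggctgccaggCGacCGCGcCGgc
The Mobp stretch (chr9:120149492-120149741, plus strand) held 4 CpG and the Tmod2 stretch (chr9:75599134-75599383, minus strand) held 2. The Frem1 stretch (chr4:83021103-83021352, minus strand) held 4, and the Otud3 stretch (chr4:138913969-138914218, minus strand) held 12. The first 3 stretches lay wholly inside their lactylated region, whereas only 91 of the 250 bases before Otud3 did. The Tmod2 and Frem1 start sites shown are inside the gene, downstream of its outer end.

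Over all 68 windows under E13.5-only lactylated regions, the median was 4 CpG per 300 bases, and 16.2% held at least 10. The median was 7 over all 32619 RefSeq windows, of which 43.8% held at least 10. Windows under regions with both E13.5 H3K18la peaks and an H3K9 mark had a median of 21, and 80.9% held at least 10. For the 25 protein-coding windows under E13.5-only lactylated regions the median was 5 CpG, against 13 for all protein-coding windows. Short motifs were counted on both strands, of which CAGCTG and TAATTA read alike on both, and matches to different motifs could overlap. CAGCTG, a form of the E-box bound by proneural factors, occurred in 27.9% of the 68 windows and in 16.4% of all windows. The shares were 23.5% and 18.7% for ACAAAG (a Sox-type motif), 8.82% and 5.25% for TAATTA (homeodomain-type), 14.7% and 14.1% for TTGGCA (a nuclear factor I half-site), and 17.6% and 13.7% for TATAAA. The E16.5-only and constant classes had still lower CpG medians, 2 in 27 windows and 3.5 in 80. They held ACAAAG in 37.0% and 30.0% of windows, TAATTA in 14.8% and 13.8%, and CAGCTG in 18.5% and 18.8%. In the 25 protein-coding windows of the E13.5-only class, CAGCTG occurred in 20%, against 15.7% of all protein-coding windows. A match is a run of letters and not a measured binding site.

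Most of the genes with these windows had few reads in the tissue. Only 7 of the 25 protein-coding windows belonged to a gene that passed the RNA filter, against 13835 of all 21631 protein-coding genes. The choice left out start sites under H3K9-marked regions, so this comparison is not independent of it. In the wider set of 83 genes with a region within 2000 bp of a start site, 45 passed. Mobp, a myelin protein of oligodendrocytes, had 8 and 3 reads in the E13.5 libraries, then 0 and 1 in the later ones, and its lactylated region (chr9:120148901-120150267) had a fold enrichment of 8.53 and 5.85 in the E13.5 replicates. Fold enrichment here is the ratio of the signal at a peak's summit to the local background, as given in the authors' peak lists. Tmod2, a neuronal protein that caps actin filaments, and Cuedc1 were the 2 exceptions in level. For Tmod2, 306 ± 5.63 CPM at E13.5 rose to 395 ± 4.198 CPM at E16.5 (mean ± SD, n = 2 libraries), a log2 change of 0.37 with an adjusted p of 1.5e-04 (edgeR). Dnah5, an axonemal dynein heavy chain of motile cilia, rose from 0.804 ± 0.0328 to 2.98 ± 0.287 CPM, a log2 change of 1.88 (adjusted p 0.0016, edgeR). Rd3, a gene known from photoreceptors, rose from 5 and 7 reads to 13 and 20 (adjusted p 0.049, edgeR), and Cuedc1 had 94.3 ± 4.47 and 93.4 ± 2.22 CPM (adjusted p 0.84, edgeR). Otud3, a deubiquitinase, fell from 10.6 ± 0.271 to 7.66 ± 0.957 CPM, by 0.46 on the log2 scale (adjusted p 0.034, edgeR). The Otud3 region ended 196 bp from an H3K9-marked peak, whereas the nearest such peak lay 19263 bp from the Mobp region and 8674 bp from the Tmod2 region.

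The E13.5-only lactylated regions were short and of modest strength. Their median length was 599 bp, with quartiles of 449 and 847 bp and a range from 264 to 3758 bp. Regions with H3K18la alone in all 4 H3K18la libraries had a median of 1271 bp, and those with H3K18la alone present only at E16.5 had a median of 545 bp. A region joins all its merged peaks, so regions with peaks from more lists can be longer by the merging alone. The median fold enrichment of the E13.5-only regions was 3.95 in E13.5 replicate 1 and 3.98 in replicate 2, against 4.79 and 4.68 for the regions called in all 4 libraries and 6.45 and 6.79 for H3K9-marked regions. In 4464 of the 5098 regions the fold enrichments of both replicates were within 1.5 times of each other. Both libraries gave a -log10 q of at least 5 in 2195 regions and of at least 10 in 312. All of this describes the calls that chose the regions and carries no test.

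**Figure D1:**
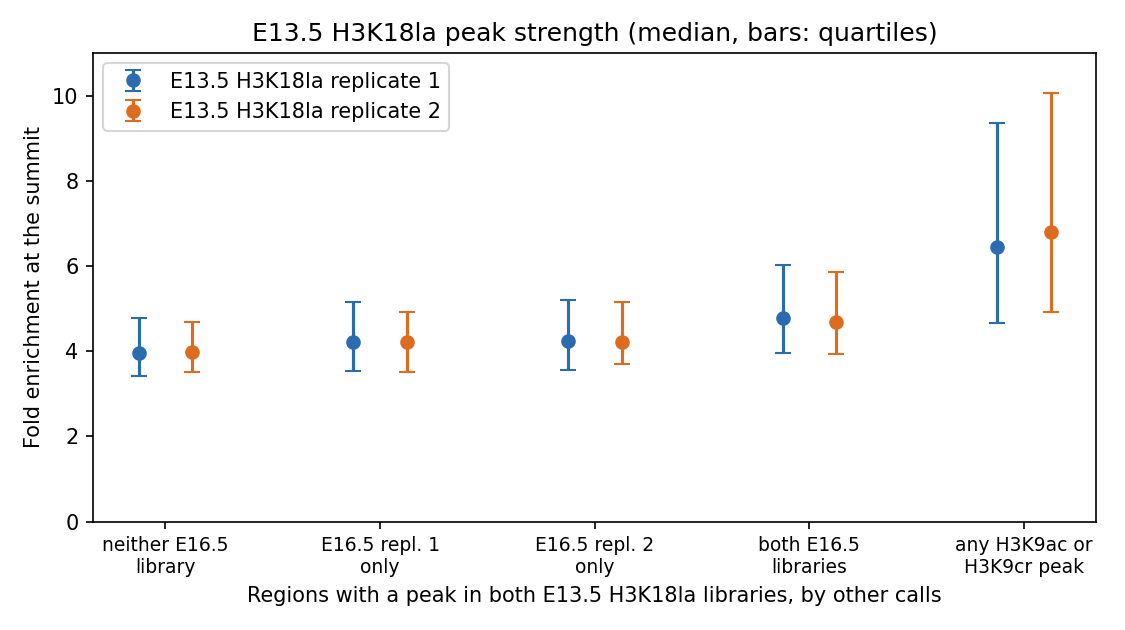
Fold enrichment at the summit (y axis, ratio to local background) in the 2 E13.5 H3K18la libraries, for regions called in both, split by their other calls (x axis). Points are medians and bars span the quartiles; regions with neither E16.5 library sit lowest, at 3.95 and 3.98, and H3K9-marked regions highest, at 6.45 and 6.79.

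The boundary of the choice was soft on every side. The regions of lowest strength inside it had a -log10 q just above 2, where the lists end, such as chr8:89131018-89131567 with fold enrichments of 2.397 and 2.44. Just outside lay 9956 regions with a peak in E13.5 replicate 1 alone and 6816 with one in replicate 2 alone, whose median fold enrichments were 3.47 and 3.51. Another 1730 regions with the same H3K18la calls were left out for an H3K9 peak, 485 of them for a peak in exactly 1 of the 8 lists. Of the H3K18la-only regions called in both E13.5 libraries, 663 more had a peak in E16.5 replicate 1 alone and 3023 had one in E16.5 replicate 2 alone. The peaks of E16.5 replicate 1 were shorter, with a median of 486 bp against 650 bp in replicate 2, and it had 62068 peaks against 76031. The part of this library difference in the number of regions was not tested, but values without each library were computed. Without E16.5 replicate 2 the class grew from 5098 to 8506 regions, and without E16.5 replicate 1 to 5796. The opposite class, H3K18la alone and only at E16.5, held 3066 regions with all libraries and 15872 without E16.5 replicate 1 or 7797 without replicate 2, but leaving out a library also drops the need for 2 libraries at that stage. With the same number of peaks in every list of a mark, 4722 regions were E13.5-only and 3811 were E16.5-only. With 1 E13.5 library only, the rule took 13130 or 16014 regions.

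**Figure D2:**
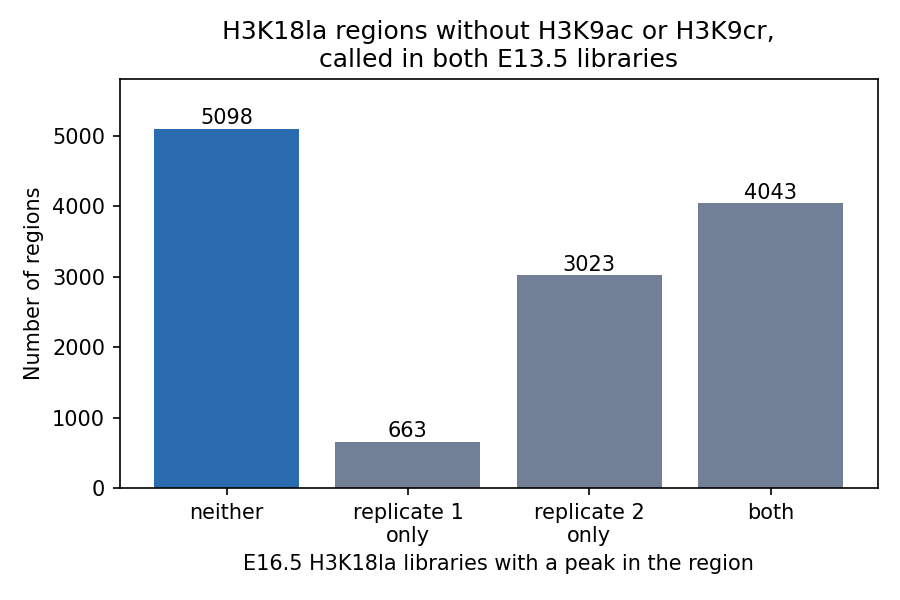
Number of H3K18la regions without H3K9ac or H3K9cr that were called in both E13.5 libraries (y axis), by the E16.5 H3K18la libraries with a peak there (x axis). The left bar is the 5098 E13.5-only lactylated regions; 3023 regions had a peak in E16.5 replicate 2 alone and 663 in replicate 1 alone.

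The choice was repeated with 1 H3K18la library per stage, and the peaks of the other 2 were counted. Those 2 are called unused here, but their peaks helped to set the region borders, since all histone lists were merged. They are also among the lists that chose the E13.5-only lactylated regions, so these counts are not independent support for a stage difference. When regions were taken from E13.5 replicate 1 and required to be absent from E16.5 replicate 1, with no H3K9 peak, 20242 regions resulted, of which 40.1% had a peak in the unused E13.5 library and 25.6% in the unused E16.5 library. With E16.5 replicate 2 as the required absence, 35.5% of 16233 regions recurred in the unused E13.5 library and 7.26% in the unused E16.5 library. Taking E13.5 replicate 2 gave 50.1% against 26.5% of 16208 regions and 44.6% against 7.86% of 12930. In all 4 combinations the unused E13.5 library held more of the regions than the unused E16.5 library did. At most 50.1% of the regions taken from 1 library of each stage recurred in the second E13.5 library. Regions taken the other way, present at E16.5 and absent at E13.5, recurred more often in the unused E16.5 library in all 4 combinations, with 47.4% against 12.8%, 21.1% against 10.9%, 50.1% against 20.4% and 22.5% against 17.8%. With 2 libraries per stage a two-sided exact permutation test cannot go below p = 0.3333, so none is given.

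E16.5 H3K18la peaks lay near many of the regions. Whether those neighbouring sites had H3K18la at E13.5 was not examined, and no background share was computed for this distance. An E16.5 H3K18la peak lay within 1000 bp of 1498 regions (29.4%) and within 10000 bp of 68.0%. The nearest H3K9ac or H3K9cr peak of either stage was at a median of 8513 bp, and 751 regions (14.7%) had one within 1000 bp. In 761 regions (14.9%) another region of the same class lay within 1000 bp, against 7.93% of the E16.5-only and 10.5% of the constant H3K18la-only regions. Those classes are smaller (3066 and 4043 regions against 5098), and the shares were not adjusted for class size. When peaks up to 500 bp apart were merged, 3553 regions met the rule.

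Most of the regions had no ATAC peak at the stage when they were lactylated. ATAC replicate 1 had a peak in 203 of 5098 regions (3.98%, exact binomial 95% interval 3.46% to 4.56%), and replicate 2 also in 203 (3.98%, same interval). Both replicates had a peak in 67 regions (1.31%, 1.02% to 1.67%) and at least 1 had a peak in 339 (6.65%). The ATAC lists took no part in the choice, but the comparison is not independent of it. The choice left out every region with an H3K9 peak, and H3K9-marked regions had the highest ATAC share of the classes compared. A low share was thus in part set by the choice. The share with both ATAC peaks was 0.489% (0.274% to 0.806%) in H3K18la-only regions present only at E16.5, 8.19% (7.36% to 9.08%) in those called in all 4 libraries, and 39.6% (39.1% to 40.2%) in H3K9-marked regions. These intervals cover counting error only and take regions as independent, which neighbours are not. The classes differ in length: among regions of 500 to 1000 bp, a comparison chosen after seeing the data, the shares with both ATAC peaks were 1.08%, 0.586%, 4.55% and 15.1% in the same order. Taken with 1 E13.5 H3K18la library, the share was 0.495% without replicate 1 and 0.562% without replicate 2, and it was 2.64% when every histone peak had a -log10 q of at least 5. The overlaps were also small, since with ATAC peaks required to cover 25% of a region the share fell to 0.0588%. The 67 regions with both ATAC peaks had a median length of 802 bp and a median fold enrichment, averaged over both libraries, of 4.45, against 591 bp and 4.02 for the 4759 regions with neither.

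**Figure D3:**
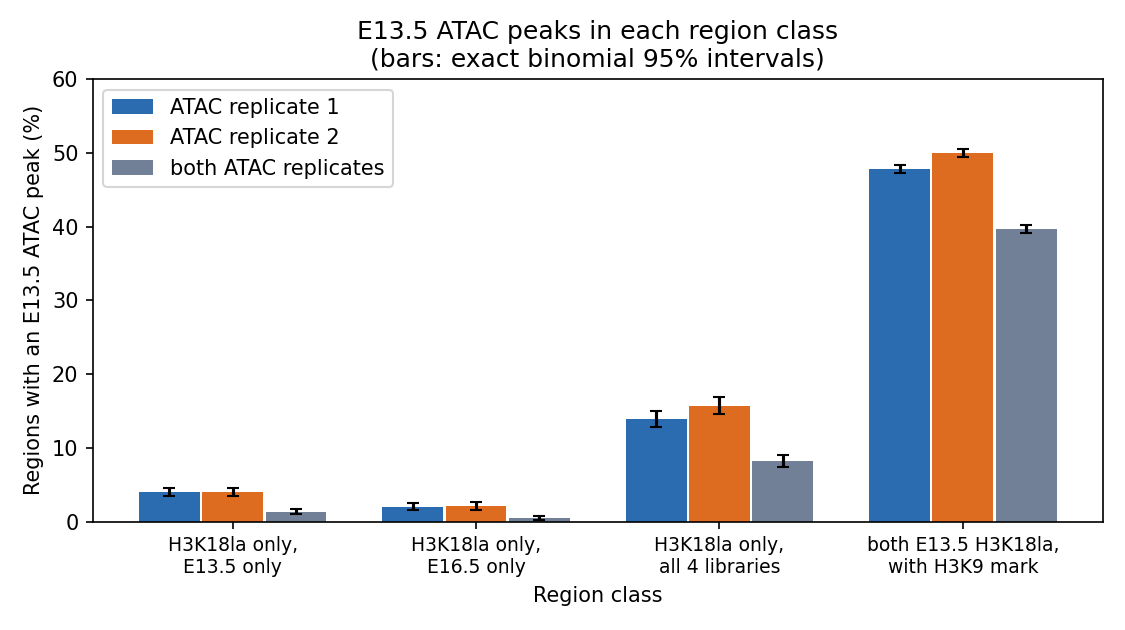
Share of regions with an E13.5 ATAC peak (y axis, percent) in ATAC replicate 1, replicate 2 and both, for 4 region classes (x axis), with exact binomial 95% intervals. The E13.5-only lactylated regions stand at 3.98% in each replicate, above the E16.5-only class and below the other 2 classes.

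By position, the E13.5-only lactylated regions lay mainly away from gene ends, inside genes or between them. The choice left out every H3K9-marked region, and these had the highest share at gene ends of the classes compared. A low share at gene ends was thus in part set by the choice. Exons and introns were not told apart. Of the 5098, 2301 (45.1%, interval 43.8% to 46.5%) overlapped the span of a protein-coding gene. This was below the 58.5% of all regions with both E13.5 H3K18la peaks and the 65.4% of H3K9-marked regions. It was above the 34.6% (32.9% to 36.3%) of the E16.5-only and 34.9% (33.4% to 36.4%) of the constant H3K18la-only regions. Within 2000 bp of either end of a protein-coding gene lay 205 regions (4.02%, 3.50% to 4.597%), against 2.28% and 2.05% in those classes and 32.6% of H3K9-marked regions. Only 86 (1.69%) lay within 2000 bp of a protein-coding start site of the promoter table. Outside genes and over 2000 bp from any end lay 2706 regions (53.1%). The share was 64.5% in the E16.5-only class, 64.3% in the constant class and 39.7% over all regions with both E13.5 H3K18la peaks. Of the 2797 regions outside gene spans, 1184 (42.3%) were over 100000 bp from the nearest protein-coding gene, against 49.9% in the E16.5-only and 50.5% in the constant class. Every chromosome held some of the E13.5-only lactylated regions, from 8.24% of all regions with both E13.5 H3K18la peaks on chromosome 17 to 12.6% on chromosome 16. Chromosome X held 78 (1.53%, 1.21% to 1.91%), against 0.620% and 0.643% of the E16.5-only and constant classes and 1.82% of H3K9-marked regions.

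Of the 10 strongest regions, 7 lay outside protein-coding genes. The highest mean fold enrichment was at chr2:73797608-73799174, with 10.4 in E13.5 replicate 1 and 8.42 in replicate 2, which lay 17335 bp from Atf2, a stress-responsive transcription factor gene. At chr5:10592864-10593830 the values were 6.66 and 10.8, and the nearest protein-coding gene was 589185 bp away. The region chr13:79672526-79673316, with 8.11 and 9.13, lay 1210068 bp from Arrdc3. In these 3 examples both libraries stood well above the class medians, and the last 2 lay 447 and 406 bp from an E16.5 H3K18la peak. The other 3 of the 10 lay inside genes: chr5:13379539-13380509 in Sema3a, which encodes a secreted repellent of axons, with 10.2 and 6.55, chr8:114580100-114580776 in Wwox, which encodes an oxidoreductase with WW domains, with 9.15 and 7.18, and chr4:14547235-14548369 in the anion transporter gene Slc26a7, with 8.74 and 7.56. The longest region, chr1:156961619-156965376, spanned 3758 bp, 21769 bp from Ralgps2, with 6.87 and 4.91. Another of the longest, chr4:83020399-83023540, covers the inner start site of Frem1, a basement membrane protein, shown above.

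Regions with both ATAC peaks that were also strong included chr13:114218876-114220955 near Arl15, with fold enrichments of 6.80 and 8.42 and ATAC peaks over 338 and 226 of its 2080 bp. It lay 51497 bp from the nearest E16.5 H3K18la peak. The region chr17:15322812-15324232 lay 43122 bp from Dll1, a Notch ligand of newborn neurons, with 8.38 and 5.37 and ATAC peaks over 300 and 233 bp. At chr3:71919408-71920847 the fold enrichments were 9.78 and 4.45, a difference of over 1.5 times between replicates, and the nearest protein-coding gene was 967710 bp away.

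Within genes, the regions were spread thinly over many genes. Protein-coding genes with at least 1 in their span numbered 1385 of 21631, of which 905 had exactly 1, 59 had at least 5 and 9 had at least 10. The 10 genes with most held 105 of the 2301 regions that overlapped a gene span, and all 10 are long. Auts2, a chromatin and cytoskeletal regulator of neuronal development, and Lsamp, a neural cell adhesion protein, held 12 each. Wwox, the axon guidance receptor Robo1 and Dab1, the adaptor that relays reelin signals, held 11 each. Esrrg (a nuclear receptor), Npas3 (a neuronal bHLH-PAS factor), Lrmda and Tenm3 (a synaptic adhesion protein) held 10 each, and Ebf1, a transcription factor of early striatal neurons, held 8. The Auts2 regions were spread over the gene with gaps from 0.260 to 297.7 kb, had mean fold enrichments from 3.28 to 5.28, and none had an ATAC peak. None of the regions of Wwox, Dab1, Esrrg, Npas3, Lrmda, Tenm3 or Ebf1 had one either, while 1 of the 12 in Lsamp and 2 of the 11 in Robo1 did.

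**Figure D4:**
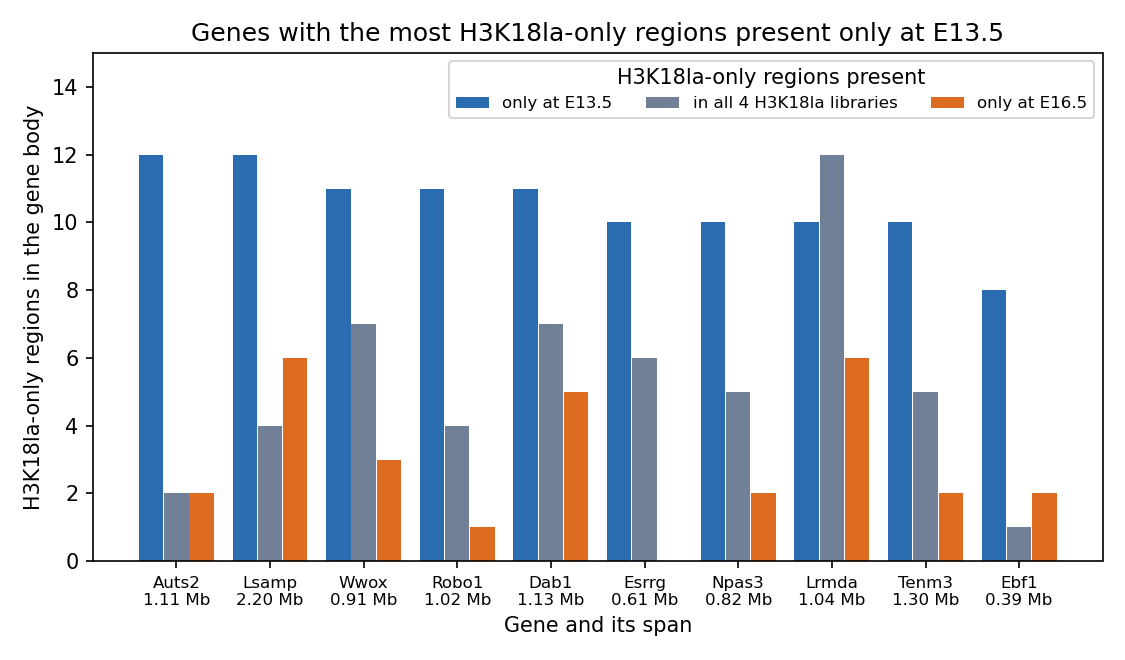
H3K18la-only regions in the span of the 10 genes with most E13.5-only lactylated regions (y axis, count; x axis, gene and span), by stage of presence. Auts2 had 12 present only at E13.5 against 2 constant and 2 present only at E16.5, while Lrmda had 10, 12 and 6.

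These genes were chosen by the number of regions at E13.5, so the larger count for that stage is partly the choice. The RNA of the same genes went both ways. Of the 9 that could be tested, 3 rose and 4 fell between E13.5 and E16.5. Each of these genes spans over 200 kb. Of all tested protein-coding genes with a span over 200 kb, 54.1% rose and 17.3% fell. The difference from these shares was not tested. Lsamp had 32.9 and 30.7 CPM at E13.5 and 136 and 145 CPM at E16.5, a log2 change of 2.14 ± 0.06 (SE; adjusted p 5.2e-07, edgeR). Robo1 had 203 and 208 CPM, then 327 and 347 CPM (log2 change 0.71), and Tenm3 had 136 and 135 CPM, then 230.0 and 219 CPM (0.73). Auts2 went the other way, from 528 and 500.4 CPM to 339 and 372 CPM, a log2 change of -0.53 ± 0.05 (SE; adjusted p 8.2e-05, edgeR). Esrrg (log2 change -0.49), Npas3 (-0.41) and Wwox (-0.52) fell as well. In each of these 7 genes the stages did not overlap. Dab1 had 152 and 139 CPM, then 163 and 161 CPM, with an adjusted p of 0.051 (edgeR), and Ebf1 had 54.8 and 58.9, then 64.9 and 61.0 CPM, with an adjusted p of 0.085 (edgeR). Without RNA_E13.5 replicate 1 Dab1 passed (adjusted p 0.047, edgeR), and without RNA_E13.5 replicate 2 or RNA_E16.5 replicate 1 Wwox did not (0.081 and 0.073, edgeR), nor did it with DESeq2 (adjusted p 0.10). With upper-quartile scaling Dab1 and Ebf1 passed (adjusted p 0.0071 and 0.013, edgeR). In bulk tissue, fewer cells of a type and less RNA per cell cannot be told apart.

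Over all genes, 28.4% of 16237 tested rose and 29.2% fell at an adjusted p under 0.05 (edgeR). Of the 1193 tested protein-coding genes with an E13.5-only lactylated region in the body, 533 (44.7%) rose and 276 (23.1%) fell (median of the log2 changes 0.25). Among all 13835 tested protein-coding genes with a position, 30.4% rose and 32.4% fell (median -0.01). Genes that hold a region are long, with a median span of 151 kb against 17.3 kb for all, and long genes rose more often whether or not they held one. In genes over 200 kb, 54.2% of those with a region rose and 19.3% fell, against 54.1% and 17.3% of all genes of that span. Between 50 and 200 kb the shares were 36.8% and 27.8% against 35.4% and 30.2%. Under 50 kb, 61 of 154 genes with a region (39.6%) rose and 31 (20.1%) fell, against 26.4% and 34.6% of all genes under 50 kb. Short genes with a constant or an E16.5-only H3K18la region in the body rose in 40.3% and 49.0% of cases. The split by span was chosen after seeing the data, and no test compares the lists.

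Genes of axon guidance held many of the regions. In the list for neuronal differentiation and axon growth, 13 of 28 genes held 56 regions, or 6.48 per Mb. The density was 2.21 per Mb in all protein-coding genes and 2.90 per Mb in those over 200 kb. Constant H3K18la-only regions numbered 27 in this list and 1431 in all protein-coding genes, and E16.5-only ones 8 and 1069. By role, the secreted ligands were Slit3 with 7, Sema3a with 6 and Slit1 and Slit2 with 3 each, and the receptors were led by Robo1 with 11, Robo2 and Dcc with 6 each and Nrp1 and Epha3 with 5 each. Of the 13, 8 rose and 3 fell, and of the whole list of 28, 15 rose and 9 fell. Nrp1, a receptor for class 3 semaphorins, had 72.4 and 59.4 CPM at E13.5 and 134 and 133 CPM at E16.5 (log2 change 1.02). Epha3, an ephrin receptor, had 203 and 195 CPM, then 141 and 138 CPM (-0.51). Unc5d, a netrin receptor that held 1 region and also 2 E16.5-only ones, rose from 53.5 ± 6.40 to 133 ± 3.66 CPM (1.32). Slit2 fell from 52.0 ± 2.41 to 40.7 ± 1.497 CPM (-0.35), while Slit1 stood at 176 ± 3.33 and 162 ± 12.1 CPM with an adjusted p of 0.15 (edgeR).

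Per length, the list for the earliest cortical neurons held the most of the 26 lists. Cajal-Retzius cells are the first cortical neurons, lie at the surface and secrete reelin. Of 10 listed genes, 3 held 11 regions (11.3 per Mb): 5 in Ebf2, 3 in Ebf3 and 3 in Reln. Constant H3K18la-only regions numbered 13 in the same list, more than the E13.5-only ones, with 6 in Ebf2 and 7 in Ebf3. In all protein-coding genes they numbered 1431 against 2318, counting a region once for each gene that holds it. The high density was thus not particular to the E13.5-only class. The RNA of Ebf2, Ebf3 and Reln fell, as did that of 7 genes of the whole list of 10. Ebf2, a transcription factor of these cells, had 6.79 and 8.44 CPM at E13.5 and 1.45 and 1.04 CPM at E16.5, a log2 change of -2.61 ± 0.27 (SE; adjusted p 9.9e-05, edgeR). Ebf3 had 20.3 and 25.97 CPM, then 6.59 and 6.65 CPM (-1.81), and Reln fell from 327 ± 26.1 to 203 ± 22.1 CPM (-0.69). No library of one stage reached the values of the other in any of them. In the ventral list only Erbb4, a neuregulin receptor of interneurons, and Ebf1 held regions, 8 each, and Erbb4 rose from 91.9 ± 2.91 to 113 ± 7.18 CPM (0.30) while 13 of the 22 listed genes fell.

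The Wnt and hem, radial glia, Notch, and Bmp, Hedgehog and Fgf lists held between 4.76 and 7.84 regions per Mb. In the same order, E13.5-only regions numbered 10, 7, 6 and 9. Constant H3K18la-only regions numbered 5, 6, 4 and 2, and E16.5-only ones 0, 3, 0 and 4. Of 23 Wnt and hem genes, 6 held 10 regions (7.84 per Mb). Of these 6 genes 1 rose and 3 fell, and of the 21 tested in the whole list 3 rose and 10 fell. Wnt8b, a ligand of the hem, had 3.18 and 3.31 CPM at E13.5 and 1.01 and 0.817 CPM at E16.5 (log2 change -1.83), with 1 region across and 1 just past an end of the gene. Lef1, the transcription factor of the pathway, fell from 16.1 ± 1.42 to 10.2 ± 0.960 CPM (-0.65), and Dkk3, a secreted protein of the Dickkopf family, rose from 16.7 ± 2.88 to 34.9 ± 0.984 CPM (1.07). Tcf7l2, another transcription factor of the pathway, had 18.1 CPM in E13.5 replicate 1 and 65.7 CPM in replicate 2, then 20.4 and 18.3 CPM, and was not called (adjusted p 0.075, edgeR). Of 20 radial glia genes, 4 held 7 regions. Of these 4 genes 1 rose and 3 fell, and of the whole list 4 rose and 15 fell. Hmga2, a chromatin protein of early progenitors, held 2 and went from 35.4 and 48.3 CPM to 1.34 and 1.69 CPM, a log2 change of -4.78 ± 0.21 (SE; adjusted p 1.5e-06, edgeR). Tcf7l1, a repressor of Wnt targets, held 3 and went from 44.1 and 39.6 CPM to 9.22 and 9.05 CPM (-2.20). Among Bmp, Hedgehog and Fgf genes, 7 of 33 held a region (1 rose and 4 fell, against 8 and 16 of the 31 tested in the whole list), among them Gli3, the Hedgehog repressor, with 1 (141 ± 1.87 to 42.7 ± 1.42 CPM, -1.73) and Bmpr1b with 3 (17.2 ± 0.225 to 12.5 ± 0.454 CPM, -0.46; DESeq2 did not call it, adjusted p 0.057). Gli3 also held 2 constant and 2 E16.5-only regions. Of 16 Notch genes, 11 of which fell, 4 held one, and Notch2 and Notch3 fell (-0.17 and -0.53), although Notch2 lost its call when any of 3 RNA libraries was left out, with an adjusted p of 0.10 and 0.096 without E13.5 replicates 1 and 2 and 0.18 without E16.5 replicate 2 (edgeR), and with DESeq2 (0.064) or upper-quartile scaling (0.31).

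Among layer genes, 7 of 12 deep-layer genes held 19 regions (6.19 per Mb), with Sox5 at 6, Foxp2 at 5 and Ldb2 at 3. Of these 7 genes 3 rose and 3 fell, against 5 and 6 of the whole list. The list also held 9 constant and 9 E16.5-only H3K18la-only regions. Sox5 held 6 of the E16.5-only ones, Ldb2 3 and Foxp2 0. Sox5, which orders the birth of deep-layer neurons, fell from 228 ± 12.5 to 110 ± 8.25 CPM (-1.06), and Ldb2, a cofactor of LIM factors, rose from 17.4 ± 1.54 to 37.97 ± 5.10 CPM (1.13). Foxp2, a factor of corticothalamic neurons, had 33.5 and 41.3 CPM, then 47.3 and 46.5 CPM (0.33), and lost its call without RNA_E13.5 replicate 1 or RNA_E16.5 replicate 1 (adjusted p 0.14 and 0.073, edgeR) or with DESeq2 (0.059). Adhesion and synapse genes, which are among the longest, stood near the background of long genes, with 2.36 and 2.54 regions per Mb. The adhesion list held 68 E13.5-only, 64 constant and 43 E16.5-only regions, and the synapse and channel list 47, 27 and 32. Of the 25 adhesion genes with a region 23 rose and 1 fell, and of the 18 synapse and channel genes 17 rose and none fell, but in the whole lists 30 of 32 and 33 of 38 rose. Opcml, an adhesion protein with 5 regions, rose from 11.1 ± 2.62 to 81.5 ± 0.631 CPM (2.89). Dlg2, a postsynaptic scaffold with 3 regions, rose from 31.0 ± 1.14 to 133 ± 5.43 CPM (2.10). Opcml also held 5 E16.5-only and 6 constant regions, and Dlg2 held 4 and 1.

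Some lists held none. No region lay in the 10 intermediate progenitor genes, the 27 genes of glycolysis, lactate and its transport, the 26 histone acyltransferases, deacylases and readers, the 8 telencephalon markers, the 14 erythroid and globin genes or the 7 choroid plexus genes. The genes of each of these lists span from 0.0898 to 1.65 Mb in all and a count of 0 was not set apart from the background by any test. Across all protein-coding genes, 6.40% held a region, at 2.21 per Mb. Other lists held one in cell cycle (1 of 20 genes, Mcm2, 2.004 per Mb), the oligodendrocyte lineage (1 of 10, 3.17 per Mb), the astrocyte lineage (4 of 16, 3.44 per Mb), upper-layer neurons (2 of 10, 1.78 per Mb), heterochronic and early neural genes (2 of 17, 5.59 per Mb) and Hox genes (1 of 26, 4.21 per Mb). Markers of other cells in the tissue held 1 each in the lists for microglia (Ptprc), endothelium (Pecam1), pericytes (Notch3) and meninges (Dcn). Among these 4 genes Pecam1 rose and Notch3 fell, while Ptprc and Dcn were not called (adjusted p 0.12 and 0.30, edgeR). Of those lists, 11 of 13 microglia, 12 of 12 endothelial, 7 of 8 pericyte and 2 of 8 tested meningeal genes rose in RNA. Their summed levels went from 83.2 to 84.0 CPM at E13.5 to 172 to 179 CPM at E16.5 for microglia, from 204 to 217 to 590 to 601 CPM for endothelium, and from 227 to 235 to 353 to 363 CPM for pericytes, and no listed marker had 0 reads throughout. The 12 tested erythroid and globin genes summed to 1935 and 1964 CPM at E13.5 and to 2625 and 3554 CPM at E16.5. The part of these cell types in the loss of H3K18la peaks was not tested.

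At gene ends, 207 protein-coding genes had a region within 2000 bp, of which 132 could be tested in RNA. Of these 54 (40.9%) rose and 31 (23.5%) fell, and the median of their log2 changes was 0.26. The same shares in all protein-coding genes were 30.4% and 32.4%, and the genes with a region at an end had a median of 14.7 CPM against 29.6 CPM. The choice left out H3K9-marked regions, so this comparison is not independent of it. With a window of 5000 bp, 119 rose and 96 fell. Genes beside an E13.5-only lactylated region thus went both ways. Of 47 tested genes with an E16.5-only H3K18la region at an end, 30 rose and 2 fell, and of 51 with a constant one 26 rose and 9 fell; these differences were not tested.

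The largest rise was in Ngef, a neuronal exchange factor that acts below Eph receptors. It had 3.30 and 2.81 CPM at E13.5 and 25.9 and 25.99 CPM at E16.5, a log2 change of 3.08 ± 0.14 (SE; adjusted p 1.5e-06, edgeR). Its region (chr1:87574667-87575621) lay just beyond the gene and inside Neu2, a sialidase gene, with fold enrichments of 5.43 and 4.34. Slc1a3, the glutamate transporter of radial glia and astrocytes, had 103 and 111 CPM, then 302 and 264 CPM (log2 change 1.40). Its region at chr15:8634761-8635116 had an E16.5 H3K18la peak 303 bp away. Sdc3, a neuronal heparan sulphate proteoglycan, had 270 and 264 CPM, then 619 CPM in both E16.5 libraries (1.21). The other 7 of the 10 largest rises were the potassium channel gene Kcnt1 (2.30), the caveola protein gene Cavin1 (1.99), Pdzd2 (1.70), the chemokine gene Cxcl14 (1.41), the zinc finger gene Hivep2 (1.40), Susd4 (1.07) and the guidance ligand gene Slit3 (1.02). All 10 had E16.5 values above both E13.5 values, as the rule for naming them required. An E16.5 H3K18la peak also lay 421 bp from the Cxcl14 region and 838 bp from the Hivep2 region. H3K9 peaks lay within 1000 bp for Cxcl14 (300 bp), Slit3 (495), Hivep2 (728), Kcnt1 (733) and Sdc3 (908). Neither kind lay that near for Ngef, Cavin1, Pdzd2 and Susd4.

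The largest fall was in Asb4, an adaptor of ubiquitin ligases, with 36.6 CPM in both E13.5 libraries and 10.1 CPM in both E16.5 libraries, a log2 change of -1.86 ± 0.10 (SE; adjusted p 2.6e-06, edgeR). Racgap1, which organises the spindle midzone in cytokinesis, had 209 and 205 CPM, then 86.8 and 84.6 CPM (-1.27). Mest, an imprinted gene of the hydrolase family, had 300.5 and 356 CPM, then 187 and 183 CPM (-0.83), and its region (chr6:30748672-30749066) also lay inside Copg2, which encodes a coatomer subunit. The remaining falls were in Nxn (-1.05), the centrosomal Cep41 (-0.58), the telomere protein gene Stn1 (-0.57), the adhesion gene Nectin3 (-0.56), Stxbp6 (-0.55), the spliceosomal Snrpa1 (-0.53) and the collagen receptor gene Ddr1 (-0.50). Stxbp6 lost its call without RNA_E16.5 replicate 2 (adjusted p 0.057, edgeR) or with DESeq2 (0.064). E16.5 H3K18la peaks lay within 1000 bp of the regions of Nectin3 (309 bp), Ddr1 (322), Stn1 (356) and Nxn (774). H3K9 peaks did so for Stn1 (132 bp), Ddr1 (170) and Nxn (783). Neither kind lay that near for Asb4, Racgap1, Mest, Cep41, Stxbp6 and Snrpa1. Of the listed genes with a region at an end, Epha7 rose (0.95) and Neurod1 (-0.43) and Wnt8b fell, whereas Etv5 stood at 40.8 ± 0.588 and 41.4 ± 0.324 CPM. Hoxd10, a posterior Hox gene, had no read in any of the 4 RNA libraries, although a region (chr2:74685550-74686386) lay inside its span, which Hoxd11 shares at that point.

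**Figure D5:**
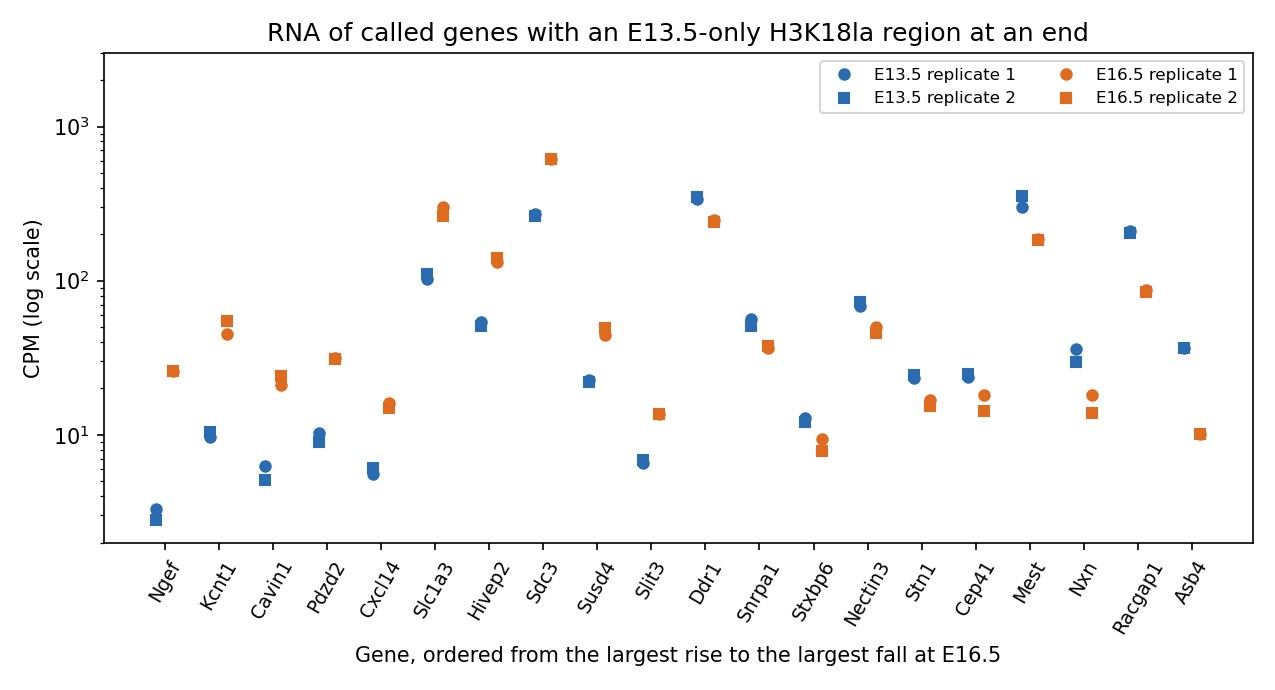
CPM on a log scale (y axis) in each of the 4 RNA libraries for the 10 largest rises and 10 largest falls among called genes with an E13.5-only lactylated region within 2000 bp of an end (x axis). The stages do not overlap in any of the 20 genes, by the rule that named them; values run from 2.81 CPM for Ngef at E13.5 to 619 CPM for Sdc3 at E16.5.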

How the data were processed

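Histone and ATAC peaks were read from 1 peak list per library, for which the submitters' processing notes name MACS2 2.2.7.1, Bowtie2 2.4.1 and the GRCm38 build. The file headers give for each deposited peak a pileup signal, a -log10 p-value, a -log10 q-value and a fold enrichment, the ratio to local background. Lists end at a q-value of 0.01, and the sources used here state neither caller settings, control nor read depth. The deposited RNA table holds expected counts, for which the submitters' processing notes name Salmon 1.1.0, with totals of 17059544 to 18485855 per library. The log2 fold changes and p-values that the authors deposited beside them were not used.

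Peaks were merged at 1 bp overlap in Python 3.11.15 (pandas 2.3.3). Shares carry exact (Clopper-Pearson) 95% intervals, which cover counting error only. After rounding, edgeR 4.0.16 under R 4.3.3 tested the counts (quasi-likelihood, TMM, filterByExpr, Benjamini-Hochberg over 16237 genes), and calls had an adjusted p under 0.05. The fit was tested on simulated data. DESeq2 1.42.0 was an alternative. P-values test the stage difference against the spread between 2 libraries per stage, which the fit moderates with information from all genes. Gene positions came from RefSeq without strand, so both ends of a gene counted. A gene had a region at an end within 2000 bp.

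The members and the 26 gene lists were chosen with earlier results of these data known. Genes were named by rule: the 10 with most regions in the body, the 10 largest rises and falls with a region at an end (adjusted p under 0.05, mean CPM of at least 10, no overlap), and list genes with a region at an end or up to 2 rising and 2 falling in the body. Further list genes, start-site genes and regions of lowest strength were named after their values were seen. Regions were the 10 strongest, 5 longest and 5 strongest with both ATAC peaks. Alternatives were other thresholds, merging distances, coverage minimums, scalings, filters and left-out libraries.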

Additional observations from a re-analysis of the deposited data

How the results depend on the processing

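With only peaks of -log10 q of at least 5 the class held 3377 regions, and leaving out 1 of the 12 histone libraries gave between 5104 and 16014. The share with both ATAC peaks was 2.64% with those stricter peaks, 1.95% with the same number of peaks in every list of a mark, 3.88% with peaks merged within 500 bp and 2.21% where a peak had to cover 25% of a region. It was 6.65% for a peak in at least 1 ATAC library, 0.0588% with ATAC peaks covering 25% of the region and 0.765% with ATAC peaks of -log10 q of at least 5. Leaving out 1 library, histone or ATAC, gave shares between 0.495% and 3.98%. The share at gene ends was 2.41% within 1000 bp and 9.45% within 5000 bp, and between 3.64% and 4.16% when 1 histone library was left out. Causes were not tested.

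Within 5000 bp of an end, 119 genes rose and 96 fell, which takes in more genes by construction. Leaving out 1 RNA library gave between 3730 and 4008 rises and 4204 and 4497 falls over all genes, 45 to 50 and 25 to 28 among genes with a region at an end, and 467 to 488 and 245 to 254 among genes with one in the body. With upper-quartile scaling the median over all genes shifted by 0.09 (log2), and 5349 genes rose and 3820 fell, against 4605 and 4740; in the body 591 rose and 219 fell, and at an end 56 and 24. Of 64 named genes under 8 alternatives, 492 of 512 comparisons kept their direction and side of the threshold, 14 lost and 4 gained a call, and 2 turned: Etv5, not called, was at -0.0059 without the filter and -0.0014 without RNA_E13.5 replicate 1, the lowest of its values with 1 RNA library left out, of which the highest was 0.0242. DESeq2 dropped 5 calls, among them Bmpr1b.

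Replicate numbers share only a number, and deviations of the first replicates of both stages correlated at 0.125 across genes. With a replicate block, 4675 genes rose and 4851 fell, 55 and 32 at an end and 543 and 283 in the body, and Dab1 passed.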
